A study of Arabidopsis thaliana with 24 samples.

Results

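The UGT genes of Arabidopsis thaliana encode enzymes that move a sugar from a UDP-sugar, most often UDP-glucose, onto a small acceptor molecule. They were taken here as all probe sets whose annotated gene symbol starts with UGT, apart from UGT75C1 and UGT78D1. The rule found 49 of the 22746 probe sets on the arrays that are not controls. Of these, 46 name 1 gene and 3 name several (UGT73B2 with UGT73B3, UGT71D1 with AT2G29710, and UGT89B1 with AT1G73885), and the signal of the 3 shared probe sets cannot be divided between their genes. UGT75C1 has no symbol in the annotation used, and UGT78D1 has 1 probe set, which the rule leaves out. Of the 49 members 31 passed the filter on low values and were tested, and the other 18 stayed near the floor of the arrays.

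Adding a sugar makes an acceptor more soluble, usually ends its activity as a hormone or toxin, and prepares it for storage in the vacuole. Acceptors of plant UGTs include abscisic acid, auxin, cytokinins, salicylate, flavonoids, the monolignols from which lignin is made, intermediates of glucosinolate synthesis and chemicals foreign to the plant. The family number and letter follow the similarity of the proteins, and near relatives can accept quite different molecules.

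Total RNA of accession Col-0 had been hybridised to 24 arrays in 8 sets of 3, named here after the set numbers that the labels carry (set ATGE_101 by its whole label). Light was continuous throughout. Set 7 came from soil-grown seedlings, green parts alone, at 23 °C in air of 65% relative humidity. For sets 22, 23 and 24 whole plants were taken under those same conditions, after the transition and before bolting. Their labels speak of developmental drift and differ in the set number alone. Sets 96 and 100 are the green part of seedlings on 0.5x GM at 20 °C, and sets 97 and ATGE_101 are the same with 5% sucrose in the medium. Per the labels, most plants of sets 96 and 97 looked like 7-day-old plants of set 7, and what separates sets 96 and 97 from sets 100 and ATGE_101 beyond that is not given. Medium and soil seedlings therefore differ in temperature as well as in substrate, and the effects of these cannot be told apart. Separate cultures for the arrays of a set are not stated in the labels, so p-values measure only the spread between these samples, which may be technical.

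The intensities are MAS5 values on a linear scale, with the same trimmed mean of 100 on each array, and array medians lay between 35.4 and 43.1. Arrays of a set correlated at r between 0.968 and 0.9918 across probe sets, and none were identical. The number of arrays limits the precision. The actin control, read as 3' over 5' probe set, had a ratio of 8.62 ± 0.425 in set ATGE_101 (SD, n = 3) against 3.6 ± 0.789 in set 100, and its set mean lay between 9.02 and 10 in the whole plants and at 5.96 in set 7. Arrays 100 A and ATGE_101_A had the lowest intensities of the BioB spike-in, 22.6 and 37.9, and array 24 A had a ratio of the GAPDH control probe sets of 2.81. Of the green tissue markers, 2 of 9 have a probe set that names the gene alone. These were high in all 8 sets, with set means of 3050 to 4760 for RCA, which activates Rubisco, and 2370 to 3970 for LHCB4.2, a light-harvesting protein. No floral organ marker, of 6, has such a probe set.

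Differences below are log2(intensity + 6.75) of the first set named minus that of the second, so that values of dim probe sets are understated. The test is limma's moderated test on a fit of all 8 set means, with Benjamini-Hochberg adjustment across the 15471 tested probe sets. A member is called where its adjusted p is below 0.05. Statements that arrays do not overlap describe the values and are not further evidence. The share over all probe sets was counted for set 96 against set 7 alone, where 96.9% of all calls had no overlap. Several comparisons share a set (set 96 enters both the sucrose and the soil comparison), so they are not independent of each other. Intensities of different probe sets are not compared with each other.

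All 31 tested members differed among the 8 sets by the moderated F test (adjusted p of 1.3e-15 for UGT73B1 to 0.046 for UGT85A7), as did 89.9% of all probe sets tested. Set 96 had the highest mean of 10 members, set 97 of 7 and set ATGE_101 of 6, while sets 7 and 22 had the lowest mean of 9 each. UGT73B5 had the widest range of set means, from 2.31 ± 1.01 in set 7 to 130 ± 15.9 in set 96 (SD, n = 3). UGT88A1 (AT3G16520) was steady by comparison, between 493 and 874 over the 24 arrays.

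**Figure D1:**
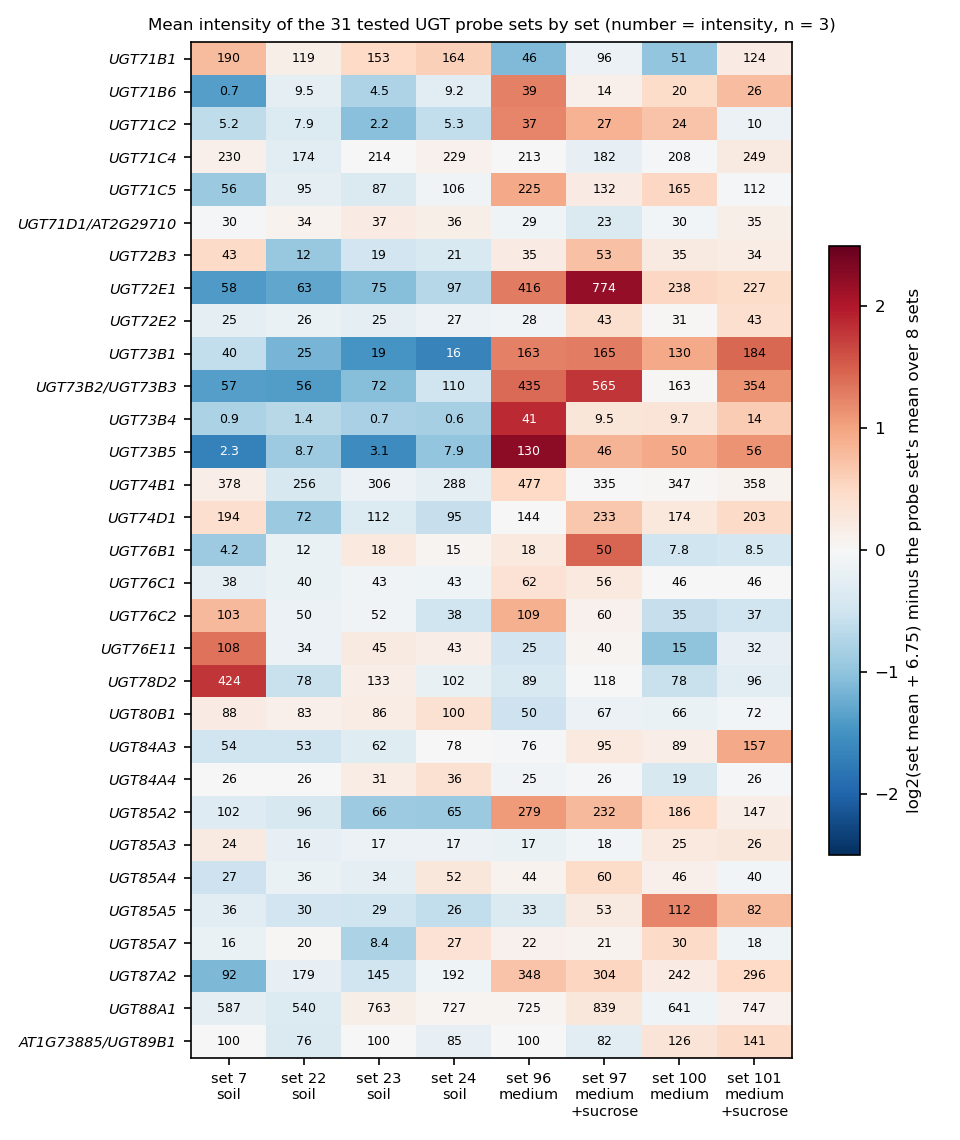
Mean intensity (printed, n = 3 arrays) of the 31 tested UGT probe sets in each of the 8 sets; colour is log2(set mean + 6.75) less the mean of the probe set over the 8 sets. In each UGT73B row the means of the medium sets 96 to ATGE_101 lie above those of the soil sets, but by uneven amounts. UGT73B4 has a mean of 41.2 in set 96 and 9.5 in set 97. The probe set of UGT73B2 and UGT73B3 has 565 in set 97 and 163 in set 100. UGT78D2 is darkest red in soil seedlings of set 7, at 424.

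The first question is how 5% sucrose in the medium changed these transcripts, which sets 97 and 96 address. The UGT73B genes UGT73B4 and UGT73B5 and the abscisic acid glucosyltransferases UGT71B6 and UGT71C5 were lower with sucrose, and UGT72E1, UGT71B1 and the auxin glucosyltransferase UGT74D1 were higher. Of the 31 tested members 10 were called higher and 6 lower, against 20.9% and 12.1% of all probe sets tested. After quantile normalization the counts were 6 higher and 7 lower. The median difference was 0.06 over the members and 0.08 over all probe sets.

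UGT73B4 (AT2G15490), a glucosyltransferase of chemicals foreign to the plant such as trinitrotoluene, stood at 38.6, 42.4 and 42.5 on the arrays of set 96 and at 3.47, 11.5 and 13.6 on those of set 97. The difference was -1.62 (95% interval -1.99 to -1.25, adjusted p = 7.4e-07) and lay between -2.08 and -0.91 under other settings. UGT73B4 passed the filter through set 96 alone, the high side of this comparison, so the filter favoured a difference in this direction. Its neighbour UGT73B5 (AT2G15480), known from the response to pathogens, stood at 138, 140 and 111 without sucrose and at 55.4, 39.4 and 43.2 with it. The difference was -1.37 (adjusted p = 7.1e-05). For both genes every array without sucrose lay above every array with it.

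UGT71B6 (AT3G21780), which puts glucose on abscisic acid, stood at 32, 36 and 49.7 without and 18.8, 9.06 and 14.8 with sucrose (difference -1.14, adjusted p = 0.0029). It passed the filter through arrays of sets 96, 100 and ATGE_101, so of this pair on the high side alone. UGT71C5 (AT1G07240), an enzyme with the same acceptor, stood at 231, 206 and 237 without and 130, 139 and 128 with sucrose (difference -0.73, adjusted p = 5.5e-05). In neither gene did the arrays of the sets overlap. UGT74B1 (AT1G24100), the S-glucosyltransferase of glucosinolate synthesis, went from 448, 489 and 492 to 331, 328 and 344 (difference -0.5, adjusted p = 0.016). UGT76C2 (AT5G05860), which attaches glucose to nitrogen atoms of cytokinins, had intensities of 110, 104 and 113 without and 69.5, 53 and 58.7 with sucrose. Its adjusted p of 0.023 lay between 0.00065 and 0.081 over the alternatives, and passed 0.05 without array 96 A, 96 C, 97 B or 97 C.

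Among the members that were higher, UGT72E1 (AT3G50740), which glucosylates coniferyl and sinapyl aldehydes, stood at 416, 397 and 434 without and at 771, 770 and 782 with sucrose. The difference was 0.89 (adjusted p = 0.00011). UGT71B1 (AT3G21750) stood at 49.9, 46 and 41 without and at 97.9, 93.7 and 97.8 with sucrose, a difference of 0.98 (adjusted p = 3.6e-07). UGT74D1 (AT2G31750), which conjugates auxins, went from 156, 130 and 146 to 245, 227 and 227 (difference 0.67, adjusted p = 9.7e-05). The arrays of both sets were apart in all 3 genes.

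UGT80B1 (AT1G43620), a sterol glucosyltransferase, stood at 54, 45.6 and 51.5 without and at 74.7, 62.3 and 64.5 with sucrose (difference 0.37, adjusted p = 0.0044). UGT85A5 (AT1G22370) was higher by 0.58 (adjusted p = 0.0044). UGT76B1 (AT3G11340), which conjugates salicylate and related defence signals, stood at 18.8, 17.3 and 16.4 without and 40.5, 43.1 and 65.8 with sucrose, and its difference of 1.19 has an interval of 0.3 to 2.09. It passed the filter through arrays of sets 23, 24 and 97. Set 97, the high side here, was needed to pass, so the filter favoured this direction. The adjusted p of UGT76B1, 0.037, lay between 0.00071 and 0.13 over the alternatives and was above 0.05 whichever single array of the 2 sets was left out. UGT72B3, UGT72E2 (a monolignol glucosyltransferase), UGT76E11 and UGT84A3 made up the rest of the higher calls, at differences of 0.5, 0.51, 0.54 and 0.3. UGT72E2 stood at 22.5, 29.7 and 32.1 without and 46.5, 39.6 and 41.8 with sucrose. UGT84A3 stood at 72.6, 79.2 and 75.7 without and 98.1, 93 and 93.7 with it. UGT76E11 stood at 24.7, 26.5 and 24.9 without and 40.1, 38.6 and 41 with it. The arrays of UGT72B3 alone overlapped, at 31.1 to 40.4 and 39.4 to 61.8. Each of these lost its call under at least 1 alternative: UGT72E2 and UGT84A3 without array 96 A or 97 A, UGT76E11 without 96 A, 96 C, 97 A or 97 C, and UGT72B3 under 8 of 15 alternatives. After quantile normalization UGT72E2, UGT84A3 and UGT76E11 lost it as well (adjusted p = 0.067, 0.055 and 0.1). The calls of 10 of the 16 members held under each alternative run.

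**Figure D2:**
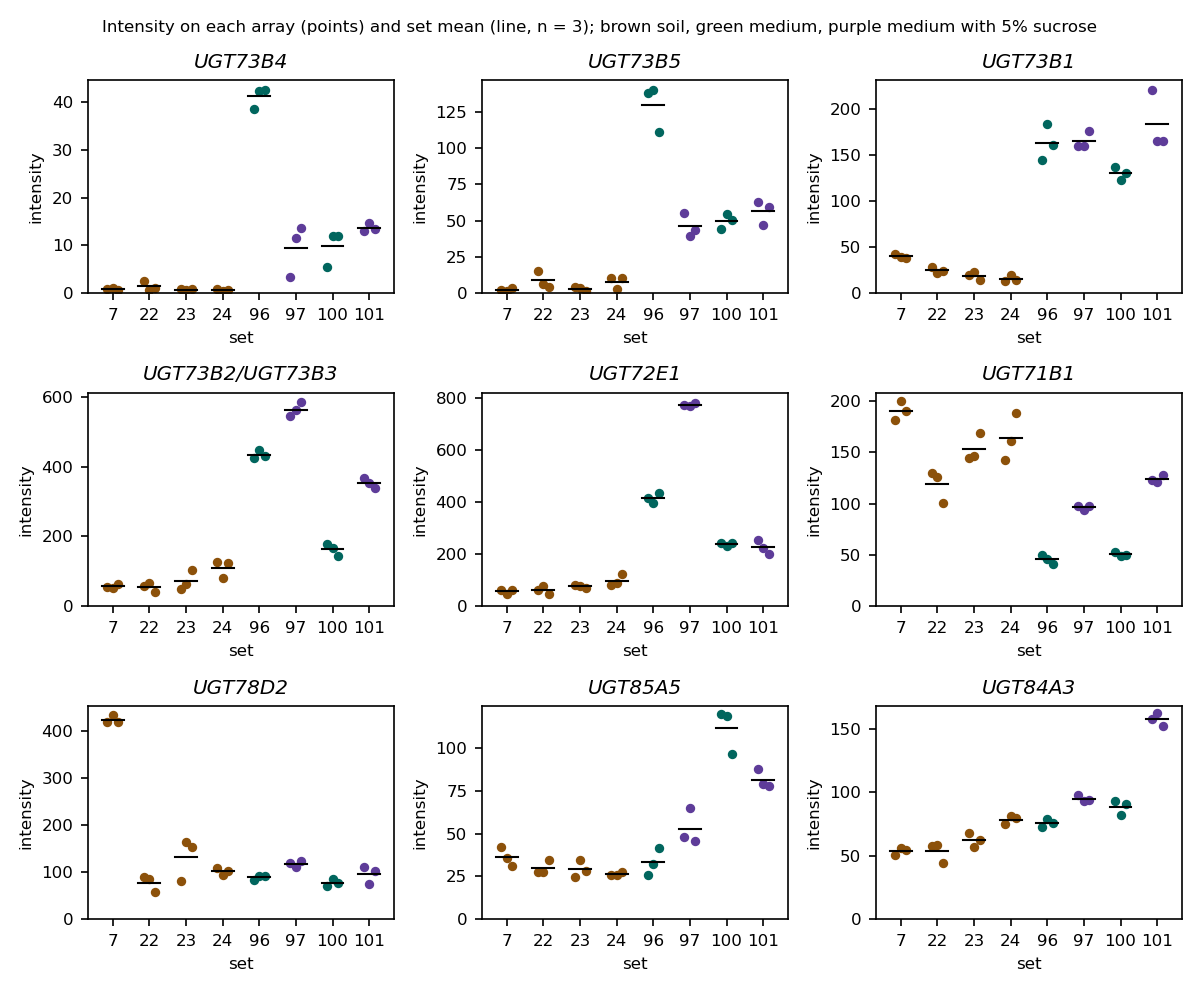
Intensity on each of the 24 arrays (points) with the set mean (line, n = 3) for 9 UGT probe sets, against the set number; brown points are soil, green points medium and purple points medium with 5% sucrose. UGT73B4 and UGT73B5 are highest in set 96, UGT72E1 in set 97 and UGT84A3 in set ATGE_101.

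The second pair of medium sets, ATGE_101 and 100, asks the same question on arrays that the first pair does not share. Here 5 members were higher with sucrose and 2 were lower, against 9.9% and 6.77% of all probe sets tested, and the median difference was 0.16 over the members and 0.03 over all probe sets. UGT71B1, the shared probe set of UGT73B2 and UGT73B3, UGT76E11 and UGT84A3 were higher, and UGT71C5 was lower. The actin ratio given above also differed between sets ATGE_101 and 100, and its part in these differences was not tested.

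UGT71B1 stood at 52.9, 49.3 and 49.7 in set 100 and at 123, 121 and 128 in set ATGE_101, a difference of 1.19 (95% interval 0.97 to 1.4, adjusted p = 1e-07). The probe set of UGT73B2 and UGT73B3, relatives of UGT73B5, stood at 179, 166 and 143 without and at 369, 354 and 340 with sucrose (difference 1.1, adjusted p = 0.00035). UGT84A3 (AT4G15490), which forms glucose esters of hydroxycinnamic acids such as sinapate, went from 92.7, 82.3 and 90.7 to 158, 162 and 152 (difference 0.79, adjusted p = 3.9e-06). The sucrose arrays lay above all the others in these 3 probe sets.

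UGT76E11 (AT3G46670) stood at 16.9, 13.8 and 15.3 without and at 34, 32.5 and 29.9 with sucrose (difference 0.82, adjusted p = 0.0023). UGT71C5 went the other way, from 151, 172 and 172 to 120, 113 and 102 (difference -0.54, adjusted p = 0.0027). UGT73B1 (AT4G34138) stood at 137, 123 and 130 without and 221, 165 and 165 with sucrose, with array ATGE_101_A the highest. Its adjusted p of 0.022 lay between 0.004 and 0.13 over the alternatives and was 0.13 without array ATGE_101_A, 0.084 without 100 B and 0.056 without 100 C. UGT71C2 (AT2G29740) had intensities of 26, 19.5 and 26.3 against 12.6, 3.51 and 14.1, with an adjusted p of 0.031 that rose to 0.2 without array ATGE_101_B, to 0.087 without 100 A and to 0.093 without 100 C. It passed the filter through arrays of sets 96, 97 and 100, so of this pair on the high side alone.

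Side by side, 3 members (UGT71B1, UGT76E11 and UGT84A3) were called higher with sucrose in both pairs and UGT71C5 was called lower in both, while none was called in opposite directions. Over all probe sets tested these shares were 5.42%, 3.44% and 0.556%. Another 12 members were called in the first pair alone and 3 in the second alone, against 23.7% and 7.25% of all probe sets, and 12 in neither. A call in a single pair does not show that the pairs differ, so the difference of the effects, (ATGE_101 minus 100) less (97 minus 96), was tested by itself. It was called above zero for 4 members and below zero for 2, against 5.37% and 6.62% of all probe sets, with a median of 0.2 over the members and -0.04 over all probe sets.

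The members above zero were UGT73B4, UGT73B5, UGT71B6 and UGT84A3. UGT73B4, lower with sucrose in the first pair, stood at 5.39, 11.9 and 12 in set 100 and at 12.9, 14.7 and 13.4 in set ATGE_101, and the effects differed by 1.96 (adjusted p = 5.5e-05). UGT73B4 passed the filter through set 96 alone, which enters this difference with a plus sign. The filter thus favoured a value above zero, which lay between 1.06 and 2.57 under other settings. UGT73B5 stood at 44.5, 54.5 and 50.4 in set 100 and at 63, 46.8 and 59.6 in set ATGE_101, which overlap, and the effects differed by 1.53 (adjusted p = 0.0035). UGT71B6 stood at 17.1, 24.7 and 17.4 against 26.5, 31.4 and 19.9, and the effects differed by 1.44. Its adjusted p of 0.019 lay between 0.0023 and 0.078 over the alternatives and was just above 0.05 without array 96 C (0.052), 97 B (0.055) or ATGE_101_B (0.051). For UGT84A3, higher with sucrose in both pairs, the second effect was the larger by 0.48 (adjusted p = 0.018).

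The members below zero were UGT72E1 and UGT85A5. UGT72E1 stood at 241, 231 and 242 in set 100 and at 255, 225 and 200 in set ATGE_101, which overlap. The difference there was -0.07 (95% interval -0.39 to 0.24), and the effects differed by -0.96 (adjusted p = 0.0055). UGT85A5 stood at 26.1, 32 and 41.5 in set 96 and at 47.8, 65 and 45.5 in set 97, but at 120, 119 and 96.6 in set 100 and at 87.7, 79.3 and 77.8 in set ATGE_101. In the second pair its difference of -0.42 was not called (95% interval -0.72 to -0.11, adjusted p = 0.055), and the effects differed by -1 (adjusted p = 0.0038).

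**Figure D3:**
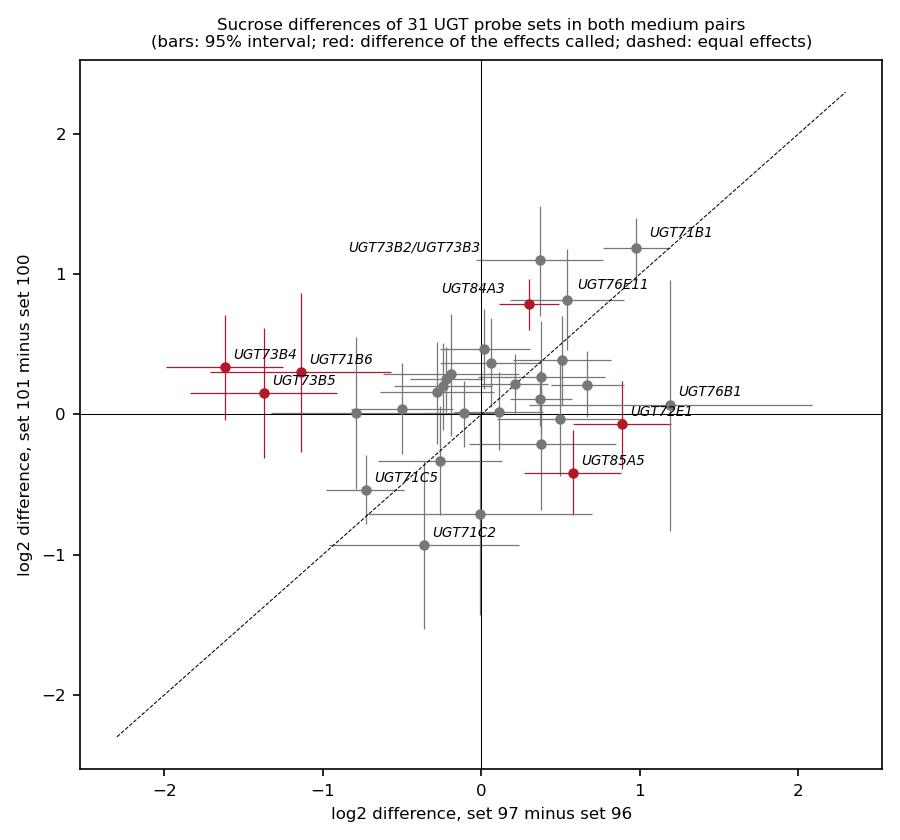
Sucrose differences of the 31 tested UGT probe sets, set 97 minus set 96 on the x axis and set ATGE_101 minus set 100 on the y axis, both log2(intensity + 6.75) differences with 95% intervals (n = 3 arrays a set). The 6 red points are the members whose effects differed between the pairs; UGT71B1 lies high on both axes, at 0.98 and 1.19.

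Set 96 against set 7 compares the green part of seedlings on sugar-free medium with that of seedlings on soil. It holds the widest differences of the family: the UGT73B genes, UGT72E1 and the abscisic acid glucosyltransferases were higher on medium, and UGT78D2, UGT71B1 and UGT76E11 were lower. Of the 31 members 15 were called higher and 6 lower, against 30.4% and 40.4% of all probe sets tested, and the median difference was 0.3 over the members and -0.12 over all probe sets. None of the 21 called members had overlapping arrays, and 68.6% of all probe sets tested, or 96.9% of those called, were called without overlap.

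Of the 8 probe sets of the UGT73 family 4 were tested, all of the UGT73B genes, and all 4 were higher on medium. Among those near the floor, UGT73C1 was lower on medium in a fit without the filter (difference -0.7, adjusted p = 0.0078), and UGT73C2, UGT73C7 and UGT73D1 were not called. UGT73B5 stood at 2.26, 1.33 and 3.35 on the arrays of set 7 and at 138, 140 and 111 in set 96, a difference of 3.91 (95% interval 3.45 to 4.37, adjusted p = 1.9e-12), which took values of 2.41 to 5.06 under other settings, since set 7 lies below the pseudocount. UGT73B4 had a mean of 0.858 ± 0.193 in set 7 and 41.2 ± 2.2 in set 96 (difference 2.65, adjusted p = 2.8e-11, 1.29 to 4.07 under other settings). UGT73B4 passed the filter through set 96 alone and UGT73B5 through sets 96, 97, 100 and ATGE_101, and UGT71B6 and UGT71C2, described next, passed through 3 medium sets each. The filter thus favoured a higher level on medium in these 4 members, and their calls do not count as independent evidence of one. The probe set of UGT73B2 and UGT73B3 had a mean of 56.6 ± 5.41 on soil and 435 ± 12.2 on medium (difference 2.8, adjusted p = 3.1e-11). UGT73B1 stood at 42.1, 38.7 and 38.4 on soil and at 144, 184 and 161 on medium (difference 1.86, adjusted p = 1e-10).

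UGT72E1 had a mean of 57.6 ± 8.63 in set 7 and 416 ± 18.6 in set 96 (difference 2.72, adjusted p = 1e-12). UGT71B6 stood at 0.255, 0.492 and 1.23 on soil, all below the pseudocount, and at 32, 36 and 49.7 on medium (difference 2.62, adjusted p = 2.6e-08, 1.25 to 4.12 under other settings). UGT71C5 stood at 59.9, 49.6 and 59 on soil and 231, 206 and 237 on medium (difference 1.88, adjusted p = 6.8e-12). Of the genes that act on abscisic acid, UGT71C5 lay above the filter on every array and does not have that limit.

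UGT87A2 (AT2G30140), which affects flowering time through the repressor FLC, stood at 88.6, 90.8 and 97.3 on soil and at 350, 357 and 337 on medium (adjusted p = 8.2e-08). UGT85A2 (AT1G22360) stood at 116, 90.5 and 100 on soil and at 249, 279 and 311 on medium (adjusted p = 9.7e-07). UGT71C2 stood at 6.57, 7.54 and 1.49 on soil and at 36.7, 36.4 and 36.7 on medium (adjusted p = 5.1e-06). The cytokinin N-glucosyltransferase UGT76C1 (AT5G05870), UGT84A3, UGT85A4, UGT76B1 and UGT88A1 were higher as well, at differences of 0.6, 0.45, 0.65, 1.27 and 0.3. UGT76C1 stood at 40.3, 31.9 and 42.8 on soil and at 59, 73.6 and 52.4 on medium. UGT84A3 stood at 50.6, 56.3 and 54.3 on soil and at 72.6, 79.2 and 75.7 on medium. UGT88A1 went from 604, 590 and 568 to 698, 731 and 745. UGT85A4 stood at 36.8, 28.9 and 15 on soil against 42.5, 38.9 and 51.4 on medium. UGT76B1 stood at 0.896, 11.1 and 0.718 against 18.8, 17.3 and 16.4. The call of UGT76B1 was lost without array 7 A2 or 7 C2 (adjusted p = 0.056 and 0.059, 0.0024 to 0.059 over the alternatives), and that of UGT85A4 without array 7 C2 or 96 C (adjusted p = 0.14 and 0.06, 0.0028 to 0.14 over the alternatives).

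Of the members lower on medium, UGT78D2 (AT5G17050), the glucosyltransferase that acts on the 3 position of flavonols and anthocyanidins, stood at 420, 435 and 419 on soil and at 82.4, 92 and 92.7 on medium. The difference was -2.17 (adjusted p = 1.9e-09). UGT71B1 stood at 182, 200 and 190 on soil and at 49.9, 46 and 41 on medium (difference -1.91, adjusted p = 7.2e-13). UGT76E11 stood at 124, 108 and 90.9 against 24.7, 26.5 and 24.9 (difference -1.82, adjusted p = 6.7e-09). UGT80B1, UGT74D1 and UGT85A3 (AT1G22380) were lower by smaller amounts, with differences of -0.73, -0.42 and -0.41. For UGT80B1 the arrays stood at 83.1, 90.4 and 90.9 on soil and at 54, 45.6 and 51.5 on medium. UGT74D1 stood at 210, 198 and 175 on soil and at 156, 130 and 146 on medium. UGT85A3 went from 22.2, 26.3 and 24.5 to 15.1, 20.5 and 14.8. Of the sets compared here, UGT85A3 exceeded the filter on soil alone, its high side.

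DFR, dihydroflavonol reductase of anthocyanin synthesis, is the single gene of 13 on the anthocyanin and flavonol list that has a probe set naming it alone. It had a mean of 651 ± 24.6 in set 7 and 23.4 ± 1.4 in set 96 (difference -4.45, adjusted p = 1.5e-13). UGT78D1, a flavonol rhamnosyltransferase outside the member rule, had means of 456 ± 20.4 and 72.6 ± 4.16 in the same sets. BCAT4 of methionine chain elongation, 1 of 24 loci on the glucosinolate list, was lower on medium by a difference of -1 (adjusted p = 2.2e-06), while UGT74B1 had means of 378 ± 53.6 and 477 ± 24.5 and was not called. USP, which makes UDP-sugars and is 1 of 29 loci on the list of UDP-sugar supply, was lower on medium (difference -0.87, adjusted p = 1.4e-08). Of the 15 loci on the xenobiotic and oxylipin list 1 has such a probe set, which was not tested, and of the 12 on the salicylate list none has, so the state of those pathways is not reported here.

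Of the root markers, PYK10 and NAI2 also differed between sets 96 and 7 (differences 1.6 and 2.02), while EXPA7 was not tested. Of 10 listed, 3 have a probe set that names the gene alone, and their summed intensity was 849 to 934 in set 7, 2830 to 2960 in set 96, 3040 to 3310 in set 97, 1390 to 1540 in set 100, 1090 to 1180 in set ATGE_101 and 25.1 to 92.1 over the whole plants. PYK10, a beta-glucosidase of ER bodies, made up most of it in the seedling sets, and EXPA7, which defines root hairs, had set means of 5.24 to 10.9, below the filter in all sets. ICL of the glyoxylate cycle, the seed marker measured of 5 listed, had means of 131 ± 18 in set 96 and 29.2 ± 8.15 in set 97 and at most 2.2 on any array of the other sets. The part of either marker list in the UGT differences was not tested, and in whole tissue fewer cells of a type and less RNA per cell cannot be told apart.

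**Figure D4:**
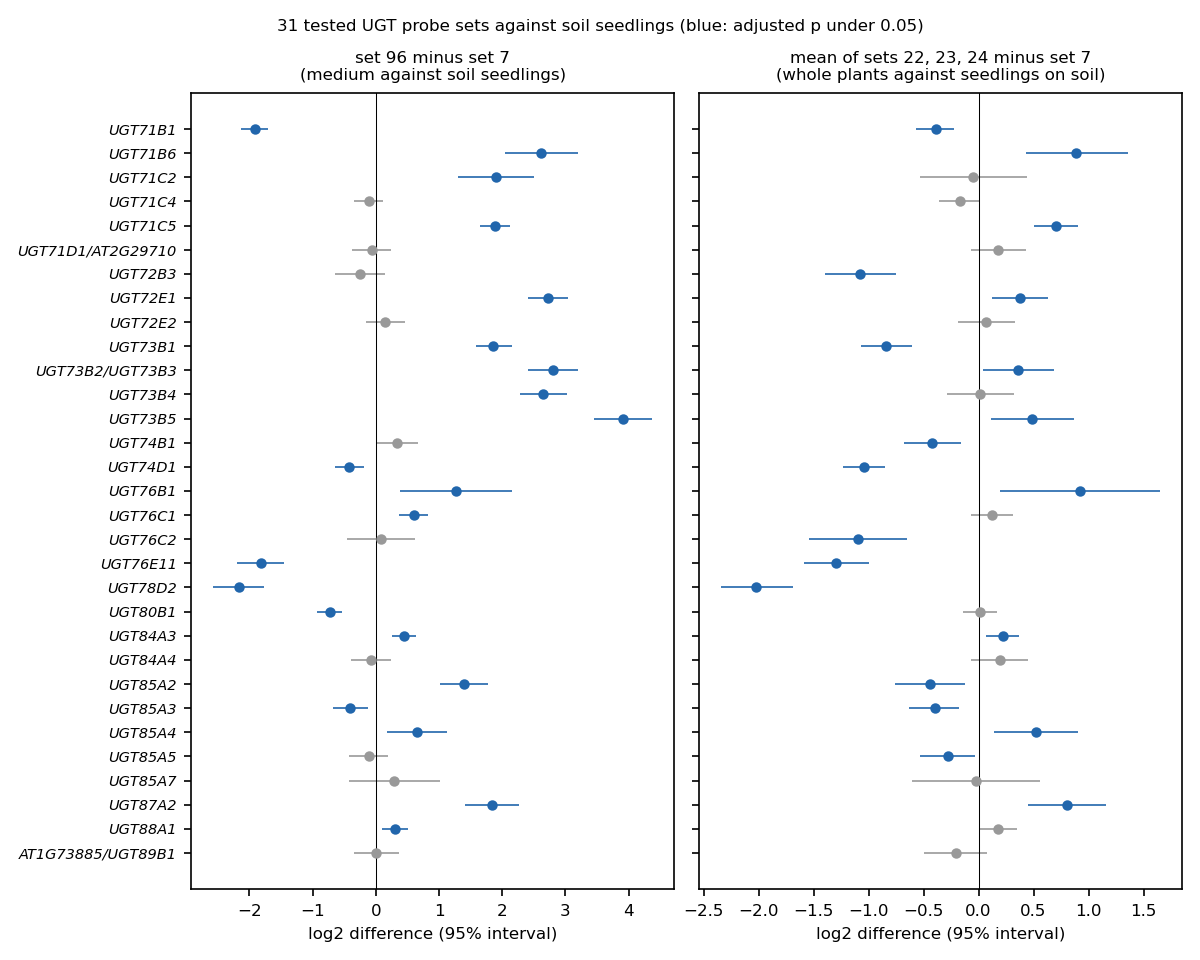
Differences of the 31 tested UGT probe sets in log2(intensity + 6.75) with 95% intervals, for set 96 minus set 7 (left) and the mean of sets 22, 23 and 24 minus set 7 (right); blue points have an adjusted p below 0.05. UGT73B5 reaches 3.91 on the left and 0.49 on the right, and UGT78D2 lies near -2 in both panels (-2.17 and -2.02).

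The mean of the whole-plant sets 22, 23 and 24 against set 7 compares whole plants with the green part of seedlings on the same soil, so that age, stage and the part harvested change together and cannot be told apart. UGT78D2, UGT76E11, UGT76C2, UGT72B3 and UGT74D1 were lower in the whole plants, and the abscisic acid genes UGT71B6 and UGT71C5 and the flowering gene UGT87A2 were higher. Of the 31 members 9 were called higher and 11 lower, against 33.3% and 31.9% of all probe sets tested, with a median difference of 0.01 over both. The comparison shares set 7 with the previous one. Without array 7 A2 the count was 13, 5 higher and 8 lower, and with only these 4 sets in the fit it was 15, 4 higher and 11 lower.

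UGT78D2 lay between 57.6 and 165 on the 9 whole-plant arrays, under the 420, 435 and 419 of set 7 (difference -2.02, adjusted p = 4.7e-10). UGT78D1 had set means of 175 ± 41.4 and 152 ± 14.1 in sets 23 and 24, and DFR was lower by a difference of -3.75 (adjusted p = 3.2e-13). UGT76E11 had means of 33.7 ± 9.09, 45.3 ± 6.49 and 42.9 ± 16.5 in the whole plants (difference -1.3, adjusted p = 8e-08). UGT76C2 had means of 49.9 ± 19.6, 52.2 ± 19.7 and 37.5 ± 9.98 there and 103 ± 4.94 in set 7 (difference -1.1, adjusted p = 0.00012). None of these 3 members overlapped between plants and seedlings.

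UGT72B3 (AT1G01420) stood at 52.4, 44.8 and 32 in seedlings and had means of 11.8 ± 1.29, 18.9 ± 2.21 and 20.8 ± 8.19 in the plants (difference -1.08, adjusted p = 4.3e-06). UGT74D1 stood at 210, 198 and 175 in seedlings and had means of 71.8 ± 10.8, 112 ± 19.1 and 94.7 ± 4.22 in the plants (difference -1.04, adjusted p = 3.3e-09). UGT73B1 was the UGT73B gene lower in plants, with means of 24.9 ± 3.2, 18.8 ± 4.25 and 15.5 ± 3.76 against 39.7 ± 2.08 (difference -0.84, adjusted p = 1.2e-06). UGT71B1, UGT74B1, UGT85A2, UGT85A3 and UGT85A5 were also called lower, at differences of -0.39, -0.42, -0.44, -0.4 and -0.28. Of these UGT85A3 alone had no overlap, with means of 16.3 ± 4.37, 17.3 ± 3.36 and 17.2 ± 2.32 against 24.3 ± 2.05. UGT85A3 exceeded the filter only in sets 7, 100 and ATGE_101, so of the sets compared here on the high side alone. The call of UGT74B1 was lost without array 7 A2, as was that of UGT85A2, and that of UGT85A5 under 12 of 22 alternatives.

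UGT71B6 lay at 0.255 to 1.23 in set 7 and had means of 9.54 ± 4.71, 4.54 ± 2.95 and 9.17 ± 6.63 in sets 22, 23 and 24 (difference 0.89, adjusted p = 0.0014), all of them under the filter, and the difference was 0.32 to 1.83 under other settings. UGT71C5 had means of 95.2 ± 2.59, 86.9 ± 12.2 and 106 ± 18.7 against 56.2 ± 5.71 in set 7 (difference 0.7, adjusted p = 1.6e-06). UGT87A2 had means of 179 ± 49.7, 145 ± 39.7 and 192 ± 62.9 against 92.2 ± 4.53 (difference 0.8, adjusted p = 0.00031), with no overlap. UGT72E1, UGT73B2 with UGT73B3, UGT73B5, UGT76B1, UGT84A3 and UGT85A4 were called higher with overlapping arrays. Each of these calls was lost under some alternatives, from 1 of 22 for UGT72E1 (without array 7 B2) to 15 of 22 for UGT73B2 with UGT73B3. Of the sets compared here, UGT76B1 exceeded the filter in sets 23 and 24 alone, on its high side.

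Among sets 22, 23 and 24 themselves 9 members were called by the moderated F test, against 17.4% of all probe sets tested: UGT71B1, UGT71C4, UGT72E1, UGT73B1, UGT73B2 with UGT73B3, UGT74D1, UGT78D2, UGT84A3 and UGT88A1. UGT84A3 had the smallest adjusted p, 0.0011, with means of 53.3 ± 8.03, 62.2 ± 5.27 and 78.4 ± 3.18 in the order of the set numbers. UGT74D1 (adjusted p = 0.0019) was highest in set 23. UGT71C4 (AT1G07250) had means of 174 ± 19.3, 214 ± 16.2 and 229 ± 37.7 (adjusted p = 0.041). When the 9 arrays of these sets were fitted alone, limma called 0 members, with 11 at an unadjusted p below 0.05 and 5.44% of all probe sets called. Without array 24 B the count rose to 15, and without array 22 A it was 6.

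Sets 100 and 96 share their labelled medium, as do sets ATGE_101 and 97 with sucrose. Their labels are not alike in full, since only sets 96 and 97 carry the note on 7-day-old plants of set 7. What else separates the sets is not given, so these differences are no measure of the spread between like sets. Set 100 had less transcript than set 96 of 3 of the 4 tested UGT73B probe sets, while UGT73B1 was not called (means of 130 ± 7.17 and 163 ± 20). In all, 11 members were called lower and 3 higher, against 12.7% and 17.7% of all probe sets tested, and the median difference was -0.31 over the members and 0.05 over all probe sets. After quantile normalization 12 were lower and 1 was higher. UGT73B4, UGT76C2, the probe set of UGT73B2 and UGT73B3, UGT73B5 and UGT72E1 were lower by differences of -1.57, -1.48, -1.39, -1.27 and -0.79 (adjusted p of 1.1e-06, 0.00017, 1.1e-05, 0.00018 and 4e-04). UGT73B4 had passed the filter through set 96 alone, which favours this direction, and its difference lay between -1.97 and -0.9 under other settings. UGT85A5 was higher in set 100, where its arrays stood at 120, 119 and 96.6 against 26.1, 32 and 41.5 (difference 1.58, adjusted p = 5.9e-08). The remaining lower calls were UGT71B6, UGT71C5, UGT74B1, UGT76C1, UGT76E11 and UGT85A2, and UGT80B1 and UGT85A3 were higher. UGT85A3 exceeded the filter in set 100, the high side, and not in set 96. Without array 96 B the count was 9 (3 higher, 6 lower), and 7 of the 14 calls held under each alternative run.

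Set ATGE_101 against set 97 gave 7 higher and 7 lower calls, against 19.1% and 17.7% of all probe sets tested, with a median difference of -0.04 over the members and 0.01 over all probe sets. UGT76B1 had a mean of 49.8 ± 13.9 in set 97 and 8.5 ± 0.656 in set ATGE_101 (difference -1.86, adjusted p = 0.0018). UGT72E1 was next, with 774 ± 6.85 against 227 ± 27.6 (difference -1.75, adjusted p = 1.6e-08). UGT71C2, UGT73B2 with UGT73B3, UGT85A2, UGT76C2 and UGT72B3 were also lower in set ATGE_101. UGT84A3, UGT85A5, UGT71B1, UGT71C4, UGT85A3 and the shared probe sets of UGT89B1 and UGT71D1 were higher there. Of sets 97 and ATGE_101, UGT76B1 and UGT71C2 exceeded the filter in set 97 alone, their high side. UGT85A3 did so in set ATGE_101 alone, its high side. UGT76B1 would not have been tested without set 97, so the filter favoured its lower call. For UGT89B1 with AT1G73885 the means were 82.2 ± 14.4 in set 97 and 141 ± 9.69 in set ATGE_101 (difference 0.74, adjusted p = 0.002), and for UGT71D1 with AT2G29710 they were 23.2 ± 2.42 and 35.4 ± 0.831 (adjusted p = 0.012, and 0.057 without array 97 B). Of the 14 calls 9 held under each alternative run.

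Set 100 against the mean of the whole plants is a contrast of medium with soil that uses neither set 96 nor set 7. Age, stage, the part harvested and temperature change with the substrate here and cannot be told apart. Of the members 18 were called higher and 4 lower, against 27.9% and 34% of all probe sets tested, with a median difference of 0.43 over the members and -0.04 over all probe sets. UGT73B1 had the largest difference, 2.39 (adjusted p = 1.2e-13), with 130 ± 7.17 in set 100 and at most 28.5 on any whole-plant array. UGT73B5 (2.15), UGT85A5 (1.75), UGT72E1 (1.56), UGT71C2 (1.44) and UGT85A2 (1.26) followed, with adjusted p of 1.7e-09, 6.2e-11, 5.2e-10, 1.8e-05 and 3.5e-07. The probe set of UGT73B2 and UGT73B3 was higher by 1.05 (adjusted p = 5.3e-06). UGT73B4 was called at 1.08 (0.39 to 2.09 under other settings), against whole-plant arrays below the pseudocount, and the filter favoured a higher level on medium for it and for UGT73B5, UGT71C2 and UGT71B6. UGT85A3, also called higher, exceeded the filter in set 100 and in no whole-plant set. UGT71B1, UGT76E11, UGT84A4 (AT4G15500) and UGT80B1 were lower, by differences of -1.39, -1.07, -0.6 and -0.4. UGT74B1 and UGT85A7 (AT1G22340) were the weakest of the higher calls, with adjusted p of 0.042 and 0.041, and lost them under 12 of 22 and 10 of 21 alternatives.

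The 18 members near the floor exceeded the filter's intensity of 22.9 on no array, and their highest arrays lay between 5.56 (UGT72E3) and 21.3 (UGT84A1). They were UGT71B5, UGT71B8, UGT71C1, the methyl salicylate glucosyltransferase UGT71C3, UGT72E3, UGT73C1, UGT73C2, UGT73C7, UGT73D1, the salicylate glucosyltransferase UGT74F1, UGT76D1, UGT76E1 (which acts on hydroxylated jasmonate), UGT76E2, UGT76E12, UGT78D3, UGT84A1, UGT84B1 (an auxin glucosyltransferase) and UGT84B2. At such intensities a low transcript level and a poorly hybridising probe set cannot be told apart. A few nevertheless differed in a fit without the filter. In soil seedlings UGT74F1 had a mean of 12.8 ± 3.94 and UGT84A1 of 13.6 ± 7.53, against 1.87 ± 0.68 and 0.89 ± 0.213 in set 96 (differences -1.17 and -1.35, adjusted p = 1.1e-07 and 5e-06). Both were also lower in the whole plants on soil than in set 7 (differences -1.23 and -1.14, adjusted p = 4.9e-09 and 4.5e-06). In set 96 against set 7 UGT76E2 went the other way, with 2.96 ± 2.19 in set 7 and 18.8 ± 2.9 in set 96 (difference 1.41, adjusted p = 1.5e-06). UGT73C1, known for conjugating cytokinins and trinitrotoluene, had means of 3.97 ± 4.1 in set 96 and 13.4 ± 3.13 in set 97 (difference 0.97, adjusted p = 0.0022). In that fit 2 of these 18 were called higher and 3 lower in set 96 against set 7, where 21.6% and 29.3% of all 22746 probe sets were. In set 97 against set 96, 2 were higher and 1 was lower, against 12.8% and 7.54%. Of the tested members, 16 lay above the filter on every array, and 6 (UGT71B6, UGT71C2, UGT73B4, UGT73B5, UGT76B1 and UGT85A7) had at least 1 array below the pseudocount of 6.75.

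Many UGT genes lie in tandem, and the data show whether neighbours share a pattern. In the gene order of the TAIR10.1 assembly, 31 of the 46 members that name 1 gene stand within 5 protein-coding genes of another member, in 13 clusters. For the 11 neighbouring pairs with both genes tested, Pearson's r over the 24 arrays ranged from -0.76 to 0.92 with a median of 0.13, and the median over all 378 pairs of tested members that name 1 gene was 0.25. UGT73B5 and UGT73B4, which are adjacent, had the highest r, 0.92, and UGT71B1 and UGT71B6, which are 3 genes apart, the lowest, -0.76. UGT85A5 and UGT85A3 reached 0.62 and UGT85A2 and UGT85A5 reached 0.5, while UGT71C5 and UGT71C4, also adjacent, stood at -0.09, UGT84A3 and UGT84A4 at -0.13, and UGT76C2 and UGT76C1 at 0.13. These correlations describe 8 sets of arrays that share growth conditions within a set, and probe sets of close relatives may partly bind each other's transcript.

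For the 3 members with the widest range of set means, the probe sets with the most similar profile over the 24 arrays were looked up among 1148 candidates that carry a symbol. UGT73B5 was closest to the transcription factor gene WRKY6 (r = 0.971), then to GAT1_2.1 (0.955) and WRKY22 (0.95). UGT72E1 was closest to ATMDAR2, which encodes a monodehydroascorbate reductase (0.948), then to DPL1 (0.941) and the receptor-like kinase gene SD1-29 (0.914). The probe set of UGT73B2 and UGT73B3 was closest to AER, which encodes an alkenal reductase (0.91), to SD1-29 (0.905) and to ATMDAR2 (0.904). The arrays of a set share their conditions, so these values describe likeness of profile over 8 sets.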

How the data were processed

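Biotin-labelled total RNA had been measured on 24 one-colour arrays. The authors deposited linear intensity values, a single one for each probe set on each array. MAS5 is named in the submitters' processing notes, with its version not given in the sources used here. Every array had a 2% trimmed mean of 100 when checked. No detection calls were used, and the arrays were not normalized further. Set numbers in the labels gave the groups. After 64 control probe sets were removed from 22810, those with 3 or more arrays above 22.9 (40th percentile of all values) were tested, 15471 of 22746.

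The log2 scale was log2(intensity + 6.75), where 6.75 is the 20th percentile. Set means were fitted to all arrays with limma 3.58.1 (R 4.3.3, package data.table of version 1.17.8), with 16 residual and 4.77 prior degrees of freedom and two-sided tests. This pooled fit was used because ranks of 3 arrays against 3 give no p under 0.1. The procedure was tested on simulated data. The platform annotation provided names 1 gene for 13513 probe sets, several for 503 and none for 8730. Gene order comes from RefSeq's annotation of TAIR10.1. No sequences or coordinates are given.

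Members, gene lists, comparisons and alternatives were chosen with earlier results of these data known. By the rule used, every member is named at least once, up to 6 of the largest differences of a comparison are described, and array values or set means are given for called members without overlap in the main comparisons. Differences printed beyond these 6 were chosen after their values were seen. The following were varied in turn: a pseudocount of 1.69 or 27; no filter or one at 61.6; quantile normalization; scaling to the 75th percentile; fitting only the compared groups; a fit with trend and robust estimates; a block for the replicate letter; and each array left out. Dropping arrays 24 A, 100 A and ATGE_101_A together was added after seeing the data.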

Additional observations from a re-analysis of the deposited data

Results flagged for a closer look

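For 6 of the 31 tested members the effect of sucrose differed between the 2 pairs of medium sets, tested as (ATGE_101 minus 100) less (97 minus 96) in the fit across all probe sets; 5.37% of all probe sets were above zero in this test and 6.62% below. The difference was 1.96 for UGT73B4 (adjusted p = 5.5e-05), 1.53 for UGT73B5 (adjusted p = 0.0035), 1.44 for UGT71B6 (adjusted p = 0.019) and 0.48 for UGT84A3 (adjusted p = 0.018). It was -0.96 for UGT72E1 (adjusted p = 0.0055) and -1 for UGT85A5 (adjusted p = 0.0038). UGT73B4 passed the filter through set 96 alone, which favoured a value above zero. UGT71B6 passed it through arrays of sets 96, 100 and ATGE_101. Sets 96 and ATGE_101 enter with a plus sign, so the filter mostly favoured a value above zero there too. The actin 3' to 5' ratio differed between sets ATGE_101 and 100 (8.62 ± 0.425 against 3.6 ± 0.789, SD, n = 3) and less between sets 97 and 96 (3.8 ± 0.375 against 4.12 ± 1.92), and its part in these results was not tested.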

How the results depend on the processing

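No called member difference changed sign under any alternative run. The balance of higher and lower calls in set 97 against 96 did turn after quantile normalization, as given above. Of the counts under alternatives, 191 stayed within 1.5 times the main count, 5 fell below and 2 rose above that range. Of the member differences called in the main fit, taken under each alternative, 1998 kept the call and 174 lost it. Calls gained under an alternative are not counted there. The call held under each alternative run for 10 of 16 members in set 97 against 96, 5 of 7 in set ATGE_101 against 100, 5 of 6 in the difference of the sucrose effects, 19 of 21 in set 96 against 7, 11 of 20 in the whole plants against set 7, 7 of 14 in set 100 against 96, 9 of 14 in set ATGE_101 against 97 and 19 of 22 in set 100 against the whole plants. With the stricter filter the count was 9 for set ATGE_101 against 97 and 19 for any difference among the 8 sets, with fewer members left to test. With only the groups compared in the fit it was 13 for the difference of the sucrose effects (6 in the fit of all sets), where the share over all probe sets rose to 19.9%, and 0 for sets 22, 23 and 24, where 11 members had an unadjusted p below 0.05; the cause was not tested. Leaving out 1 array at a time gave 13 to 21 calls for the whole plants against set 7, 6 to 15 among sets 22, 23 and 24 and 9 to 13 for set 100 against 96. The same gave 11 to 14 for set 97 against 96, 6 to 8 for set ATGE_101 against 100, 5 to 7 for the difference of the effects, 19 to 21 for set 96 against 7, 10 to 14 for set ATGE_101 against 97 and 19 to 23 for set 100 against the whole plants. The replicate block gave 16 calls for set 97 against 96, 7 for set ATGE_101 against 100, 7 for the difference of the effects, 21 for set 96 against 7 and 18 for the whole plants, but arrays of like letter correlated in their deviations only between -0.18 and 0.163, so the letters do not pair samples. Fitting only the groups compared gives no separate value for the 8 sets. The distance of a probe set's signal from the floor limits what can be read of dim members.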
